A study of Daphnia magna with 15 samples.

Results

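Daphnia magna neonates held for 24 h in water with 2000 ng/L imatinib mesylate were compared with unexposed neonates of the set named control A. The comparison used 6 of the 15 RNA-seq libraries of the study, 3 for imatinib and 3 for control A, chosen by their labels. The study asked how low levels of anticancer drugs change gene expression in this water flea. Its other libraries came from a further unexposed set, control B, and from neonates exposed to etoposide at 300 ng/L or cisplatin at 10 ng/L, with 3 libraries each. All 5 groups were whole animals of 1 laboratory strain, aged 48 to 72 h, and differed by label in the drug alone, except that the labels give no difference between control A and control B. Each exposure or control held 20 to 25 animals in 25 mL of medium for 24 h without food, and strand-marked mRNA libraries were prepared, each from 320 ng of RNA. The labels do not say which unexposed set belongs to which drug, nor whether the replicates came from separate vessels. The p-values here therefore measure a spread between libraries that may be technical. In the main fit that spread is shared over all 5 groups. In RNA of whole animals, fewer cells of a type and less RNA per cell cannot be told apart.

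Imatinib is a small molecule that occupies the ATP pocket of certain tyrosine kinases; in mammals its main targets are ABL, KIT and the platelet-derived growth factor receptors, and it is given against chronic myeloid leukaemia. Tyrosine kinases pass signals by adding phosphate to tyrosine residues of other proteins, and in animals they take part in the control of growth, cell shape and development. Daphnia magna is a small freshwater crustacean that filters particles from the water and reproduces mostly by parthenogenesis, which is why it is widely used in tests of water quality. The values describe loci, the gene units assembled by the submitters, each with an identifier, a scaffold position and 1 or more transcripts. None of these identifiers matched a gene of the reference table, so no function can be given to any locus, neither the kinases nor any marker of the animals' tissues could be looked up, and every locus is described by its position, length and values.

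Levels are FPKM, fragments scaled by transcript length and by the mapped fragments of the library, summed over the transcripts of a locus. The table held 18877 loci, of which 18098 averaged 1 FPKM or more across all 15 libraries and were tested. Depth is unknown because the table gives no counts. Control A 1 stood apart before any comparison, with 1375 loci listed at 0, against 164 in control A 2 and 75 in control A 3. The imatinib libraries listed 102, 140 and 233 loci at 0, and the 9 other libraries between 71 and 289. The main counts are therefore given with and without control A 1.

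The 3 imatinib libraries were more alike than the 3 control A libraries. The distance between a pair of libraries, taken as the median absolute difference in log2(FPKM + 1) over the tested loci, ran from 0.228 to 0.296 among the imatinib libraries. Among the control A libraries it was 0.355 between replicates 2 and 3, 0.472 between 1 and 3, and 0.500 between 1 and 2. The 9 pairs that join an imatinib library to a control A library lay between 0.298 and 0.539, with a median of 0.455, so distances within control A overlapped with distances across the groups. Control A 3 was nearer to imatinib 1, at 0.298, than to either other control A library. The median across the groups was 0.439 when control A 1 was left out. The median SD per locus on the log2 scale was 0.226 for imatinib and 0.384 for control A, beside 0.290 for etoposide, 0.160 for control B and 0.152 for cisplatin.

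**Figure D1:**
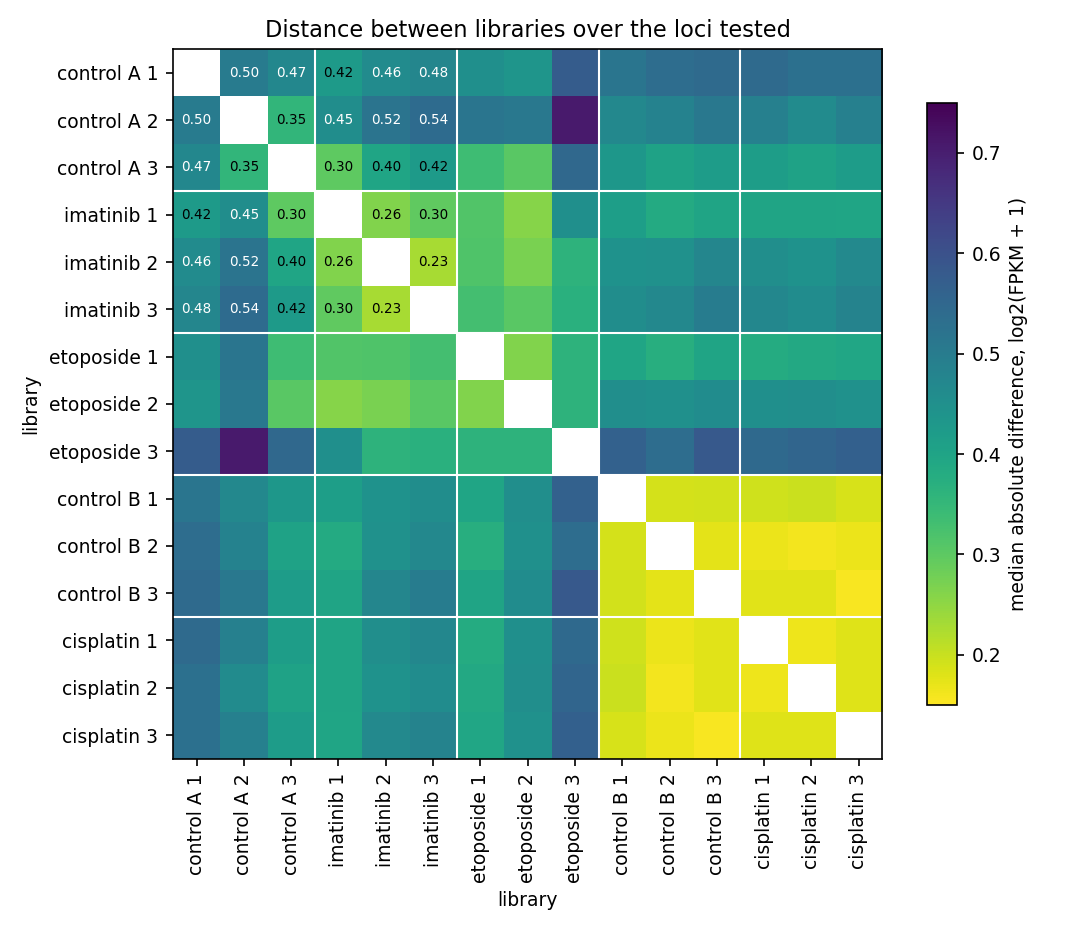
Median absolute difference in log2(FPKM + 1) between each pair of the 15 libraries over 18098 loci, with darker cells farther apart and the values printed for pairs of imatinib and control A libraries. The imatinib libraries lie within 0.296 of each other, while pairs of control A libraries reach 0.500, as far apart as many pairs across the groups.

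With imatinib, 749 loci were higher and 886 were lower than in control A by limma at an adjusted p under 0.05, in a fit of all 15 libraries that shares the spread of the 5 groups. Together these were 1635 loci, or 9.03% of the loci tested, with 4.14% higher and 4.90% lower. The changes were mostly modest. The median fold on the log2(FPKM + 1) scale was 1.86 for the higher and 1.79 for the lower loci, 299 higher and 307 lower loci differed by more than 2-fold, and 42 and 36 by more than 4-fold. In 734 of the 749 higher and 868 of the 886 lower loci no imatinib library overlapped with any control A library. Over all loci tested, groups without overlap made up 24.4%, of which 11.8% lay higher and 12.6% lower. The median difference over all tested loci was 0.01 on the log2 scale, so neither group was shifted as a whole.

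Without control A 1, 1069 loci were higher and 1401 lower by limma at the same threshold. This came to 2470 loci, or 13.6% of those tested, with 5.91% higher and 7.74% lower. Their median folds were 1.84 and 1.92, and the lower loci past 4-fold went from 36 to 127 while the higher ones stayed at 42. The fits with and without this library shared 1343 loci, 590 higher and 753 lower, and none was called in opposite directions. All 2470 had no overlap between the groups left, as did 43.3% of all loci tested, 20.6% higher and 22.7% lower. Leaving the library out removed 292 loci and added 1127. In 750 of the added loci the value of control A 1 lay within the range of the imatinib libraries or past it, away from the other 2 control A libraries. That follows largely from how the added loci were picked, as those that fail only with control A 1, and no share over all loci is given. In 52 of the added loci, or 4.61%, control A 1 was listed at 0, beside 5.60% of all tested loci.

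How many loci passed rested on the spread borrowed from other groups. When the 6 libraries were fitted alone, 2 loci passed at an adjusted p under 0.05 in limma, or 0.0111%. Both were at 0 in all control A libraries, so control A added no spread to their p-values. An unadjusted p under 0.05 in limma was found for 2993 loci. Of the 1635 loci, 1614 had an unadjusted p under 0.05 in that fit. This says little about the calls, since they were picked for large differences between the same 6 libraries. The 5 libraries left without control A 1 gave 3 loci, or 0.0166%, with 4047 at an unadjusted p under 0.05. A fit of the imatinib, control A and etoposide libraries, which leaves out the closely matching control B and cisplatin libraries, gave 2 loci (0.0111%), and 1 (0.00553%) when control A 1 was left out as well. The shared fit has 10 residual degrees of freedom and a median residual SD of 0.304, against 4 and 0.345 for the 6 libraries. It takes the spread as equal in all groups, whereas the median SD per locus was 0.384 in control A and 0.160 in control B. Its p-values against control A may therefore be too small.

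Single libraries also moved the count. Leaving out control A 2 left 199 loci, leaving out imatinib 2 left 53 and leaving out imatinib 3 left 21, whereas 1531 passed without imatinib 1 and 2672 without control A 3. The median fold of the higher loci stayed between 1.68 and 2.01, and that of the lower loci between 1.71 and 1.87. The signs of loci whose groups do not overlap cannot turn in such fits and say nothing about stability. Libraries outside the comparison counted too, since leaving out control B 2 or control B 3 left 1083 or 1059 loci. In the fit of all libraries, 56.0% of the loci had a 95% interval that stayed within a 2-fold change in either direction, and the median standard error of a difference was 0.24 on the log2 scale.

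**Figure D2:**
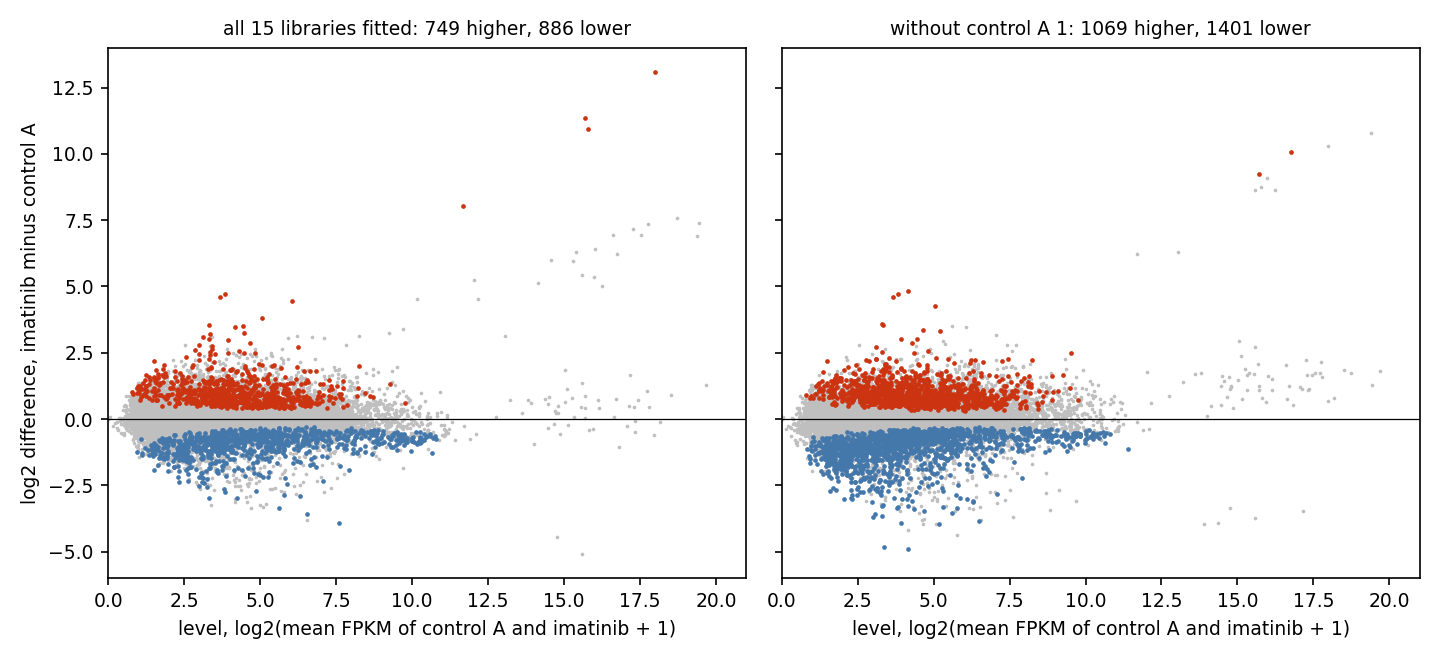
Log2 difference of imatinib minus control A against the mean level for each of 18098 loci, fitted with all 15 libraries on the left and without control A 1 on the right; red marks loci called higher, blue loci called lower, grey loci not called. The calls number 749 and 886 on the left and 1069 and 1401 on the right, and most lie close to the cloud of loci not called.

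The higher loci with the largest differences were XLOC_013873 and XLOC_016680, by a rule that asked for a call with and without control A 1, a length of at least 200 bp and groups that do not overlap. XLOC_013873 lies on scaffold02302 from 14673 to 17349 and has 2 transcripts. Its level was 6.74, 0.475 and 5.21 FPKM in control A 1 to 3 and 33.8, 79.9 and 67.0 FPKM in imatinib 1 to 3. Control A 2 was far below the other control A libraries, and even the lowest imatinib library was several times above the highest control A library. The log2 difference was 3.80 ± 0.79 (SE) with an adjusted p of 0.0194 in limma, and 4.25 with 0.0145 without control A 1. The call was lost without control A 2, imatinib 2 or imatinib 3, with adjusted p from 0.0689 to 0.0784 in limma. The etoposide libraries, for which control A may serve as the same reference, had 37.7, 62.8 and 88.1 FPKM. Control B had 15.6, 0.469 and 5.88 FPKM, as scattered as control A, and cisplatin 0.748 to 1.23 FPKM.

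XLOC_016680 lies on scaffold02921 from 56256 to 58979, has 2 transcripts and shares its interval with 1 other locus. Its level was 0.611, 0.475 and 0.505 FPKM in control A and 14.9, 24.9 and 12.4 FPKM in imatinib. All 3 controls were near the bottom of the scale and all 3 exposed libraries were well above it. It rose by 3.53 ± 0.35 on the log2 scale with an adjusted p of 0.00252 in limma, by 3.57 with 0.00748 without control A 1, and passed in all 6 fits that each left out 1 library. In the fit of 6 libraries its adjusted p was 0.0777 in limma. The transcript TCONS_00030051 carried most of the level, with 0.31, 0.24 and 0.25 FPKM in control A and 13.8, 24.9 and 10.1 FPKM in imatinib. Etoposide libraries held 4.89, 5.40 and 11.4 FPKM, control B 1.44, 0.371 and 0.356 FPKM, and cisplatin 0.167 to 0.977 FPKM, so both unexposed sets were low.

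The lower loci with the largest differences, XLOC_003257 and XLOC_017677, were short and had 1 transcript each. XLOC_003257 spans 219 bp of scaffold00934 from 69554 to 69773. Its level was 63.6, 119 and 76.8 FPKM in control A and 18.3, 6.47 and 2.91 FPKM in imatinib, without overlap. It fell by 3.35 on the log2 scale (SE 0.91, adjusted p 0.0404 in limma), and by 3.55 with an adjusted p of 0.0463 without control A 1. The other unexposed set did not share the level of control A: control B had 7.76, 14.3 and 12.8 FPKM, and against it the difference was -0.57 with an adjusted p of 0.686 in limma. Etoposide gave 53.9, 60.9 and 2.62 FPKM and cisplatin 17.2 to 40.4 FPKM. The tested loci on either side were also lower with imatinib, by -0.48 (adjusted p 0.0226) and -1.80 (adjusted p 0.0125) in limma.

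XLOC_017677 spans 440 bp of scaffold03248 from 2597 to 3037. Its level was 4.80, 24.7 and 20.9 FPKM in control A and 2.196, 1.02 and 0 FPKM in imatinib. Control A 1 was the lowest control A library and sat not far above the highest imatinib library. The log2 difference was -2.99 ± 0.81 with an adjusted p of 0.0404 in limma, and -3.67 with 0.0193 without control A 1. Control B was listed at 0, 0 and 2.13 FPKM, in the range of the exposed libraries, and the difference against it was 0.35 with an adjusted p of 0.789 in limma. Both loci lost the call when control A 2, control A 3, imatinib 2 or imatinib 3 was left out, with adjusted p from 0.0530 to 0.145 in limma. The call of XLOC_017677 was also lost with a pseudocount of 0.1 FPKM, at an adjusted p of 0.142 in limma.

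**Figure D3:**
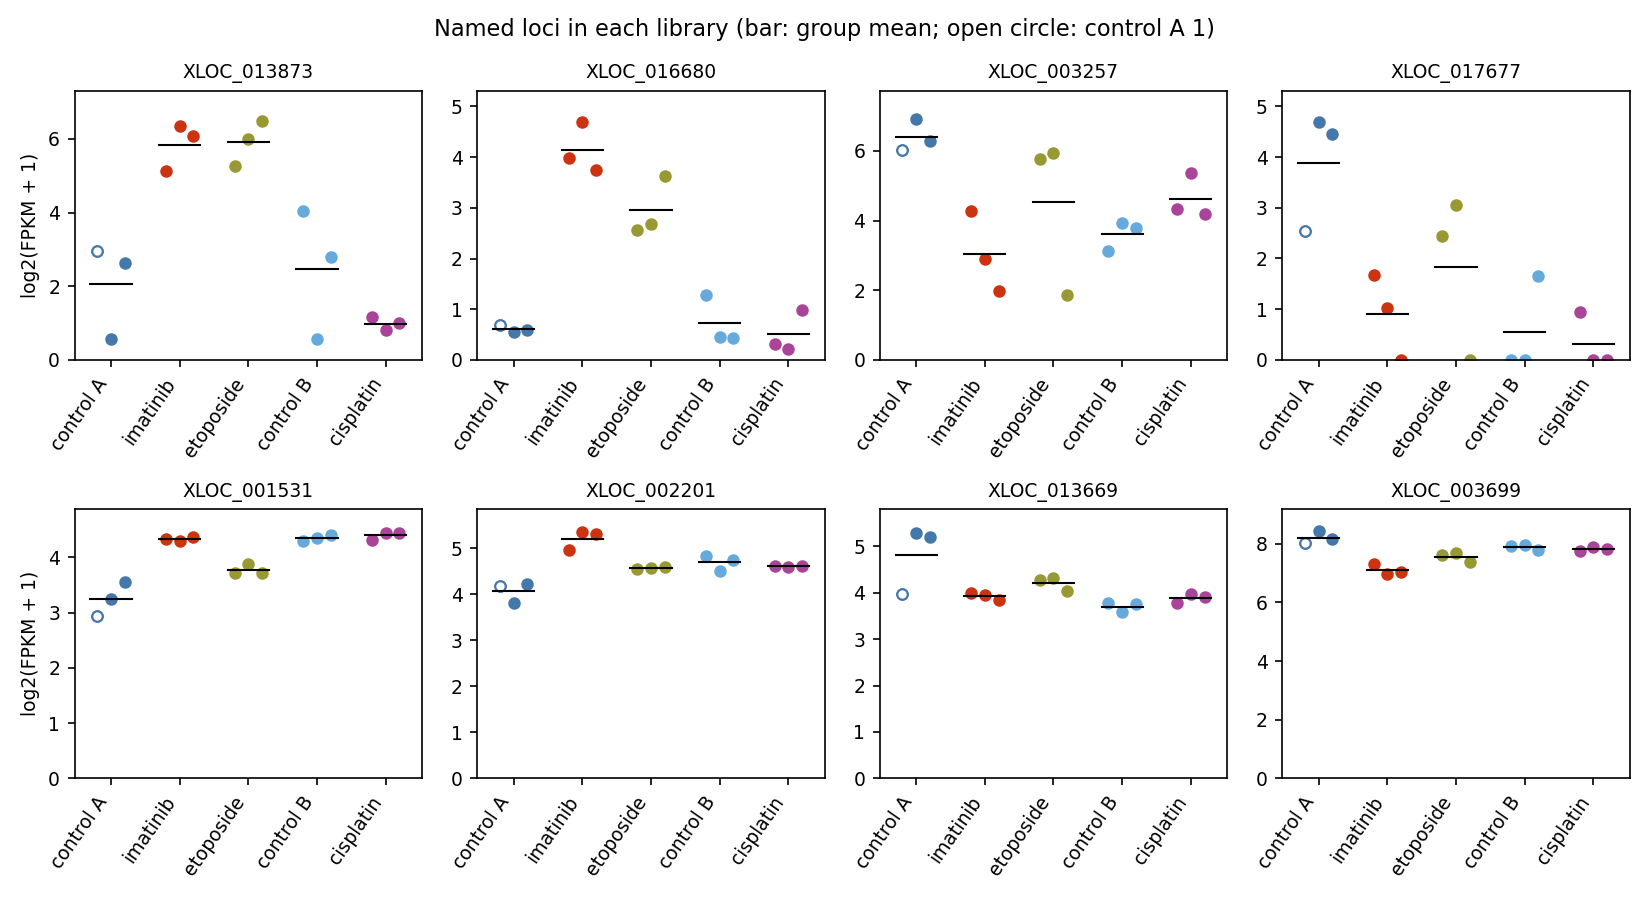
Level in log2(FPKM + 1) of 8 named loci in each of the 15 libraries, with a bar at each group mean and an open circle for control A 1. XLOC_016680 is near 0 in both unexposed sets and above 3 in the imatinib libraries, whereas XLOC_003257, XLOC_017677 and XLOC_013669 are as low in control B as with imatinib, or nearly so.

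The fit without control A 1 names a further 4 loci by the smallest p, leaving out any already named, and each changed by about 2-fold. XLOC_002201, on scaffold00803 from 0 to 1624, had 17.0, 13.1 and 17.6 FPKM in control A and 30.4, 39.6 and 38.8 FPKM in imatinib. No control A library came near an imatinib library, and control A 1 matched the other control A libraries. It rose by 1.19 ± 0.15 on the log2 scale with an adjusted p of 0.00748 in limma, and by 1.14 with 0.00823 when control A 1 was kept. Control B held 27.7, 21.8 and 25.9 FPKM, between control A and imatinib, and the difference against it was 0.51 with an adjusted p of 0.0195 in limma. The next tested locus on the scaffold was higher as well, by 1.34 with an adjusted p of 0.0125 in limma.

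XLOC_001531, with 6 transcripts on scaffold00613 from 11933 to 20761, had 6.68, 8.45 and 10.7 FPKM in control A and 19.0, 18.5 and 19.6 FPKM in imatinib. The imatinib libraries were nearly equal and the control A libraries were all clearly below them. It rose by 0.93 ± 0.12 on the log2 scale with an adjusted p of 0.00748 in limma without control A 1. Control B, at 18.7, 19.3 and 20.2 FPKM, and cisplatin, at 19.0 to 20.6 FPKM, had the level of the imatinib libraries, and the difference against control B was -0.03 with an adjusted p of 0.910 in limma. Here control A was the set that stood below the rest, with etoposide between at 12.1 to 13.7 FPKM.

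XLOC_003699, on scaffold00983 from 72397 to 75078, was an abundant locus that was lower with imatinib than in either unexposed set. Its level was 261, 343 and 285 FPKM in control A and 156, 125 and 129 FPKM in imatinib. Control B had 241, 245 and 219 FPKM, so all 6 unexposed libraries lay above all 3 exposed ones. It fell by 1.19 on the log2 scale without control A 1 (SE 0.14, adjusted p 0.00748 in limma), by 1.11 with it (adjusted p 0.00823), and by 0.78 against control B (adjusted p 0.00205). Etoposide held 195, 205 and 165 FPKM and cisplatin 217 to 236 FPKM.

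XLOC_013669, on scaffold02269 from 78178 to 79305, shows what control A 1 can decide. Its level was 14.7, 38.1 and 35.9 FPKM in control A and 14.9, 14.4 and 13.4 FPKM in imatinib. Control A 1 fell among the imatinib libraries while the other 2 control A libraries were far above them. Without control A 1 the difference was -1.32 ± 0.12 with an adjusted p of 0.00262 in limma; with it the difference was -0.89 and the adjusted p 0.0564. Control B, at 12.7, 10.9 and 12.5 FPKM, was with the exposed libraries and control A 1. All 4 loci named from the fit without control A 1 lost the call when control A 2 was left out too, with adjusted p from 0.0517 to 0.0723 in limma.

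A set of 16 loci passed in each of the 6 fits that left out 1 library, 6 higher and 10 lower. Among them were XLOC_016680, XLOC_001531, XLOC_002201 and XLOC_003699, and also XLOC_017486, which is described with the loci listed at 0. Leaving out a control A library could not change the difference of XLOC_017486, so those fits say little about it. The imatinib and control A libraries overlapped in none of the 16. The 10 lower loci fell by 1.79-fold to 3.75-fold, with a median of 2.06. Their control A means ran from 3.80 to 671 FPKM, and 5 of the 10 were over 100 FPKM. In 8 of these 10, every control B library was also above every imatinib library, as it was in 53.6% of all tested loci with a negative difference and in 70.8% of the 886 lower loci. The 5 higher loci above 0 in control A rose by 2.12-fold to 11.5-fold with a median of 2.25. In 4 of the 6 higher loci every control B library was below every imatinib library, beside 20.6% of all loci with a positive difference and 36.2% of the 749 higher loci. One of the 16 passed in the fit of the 6 libraries, and none passed in every fit once control A 1 and a further library were left out, since no locus passed in limma without control A 1 and control A 2, where 3608 had an unadjusted p under 0.05.

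Among the loci with the highest expression, lower calls outnumbered higher calls. Among the 1555 loci with a mean of 100 FPKM or more, 194 were lower and 50 higher, or 12.5% and 3.22%, beside 4.90% and 4.14% of all loci tested. The shares in this class were 12.2% lower and 7.46% higher without control A 1. Lower calls outnumbered higher ones in this class in each of the 5 other fits that left out 1 library. The shares ran from 0.322% against 0.064% without imatinib 3 to 18.4% against 5.79% without control A 3. Calls were few without imatinib 3, at 5 lower and 1 higher, and without imatinib 2, at 18 lower and 1 higher. Lower calls also led after quantile normalization, with 9.52% against 4.24%, and after centring each library on its median, with 9.65% against 2.83%. The class as a whole was not shifted one way, since its median log2 difference was -0.04 with all libraries, 0.10 without control A 1 and 0.04 without imatinib 1. In the class from 30 to under 100 FPKM the directions were nearly even, at 5.66% lower and 5.75% higher, and without control A 1 higher calls led, at 8.90% against 7.09%. The loci from 1 to under 3 FPKM were called least often with all libraries, with 2.59% lower and 2.23% higher. Without control A 1 they had 7.21% lower and 1.99% higher, and at 9.20% were still called least often. The median standard error went from 0.33 in that lowest class to 0.19 between 30 and 100 FPKM, so the same fold is harder to call at low level.

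**Figure D4:**
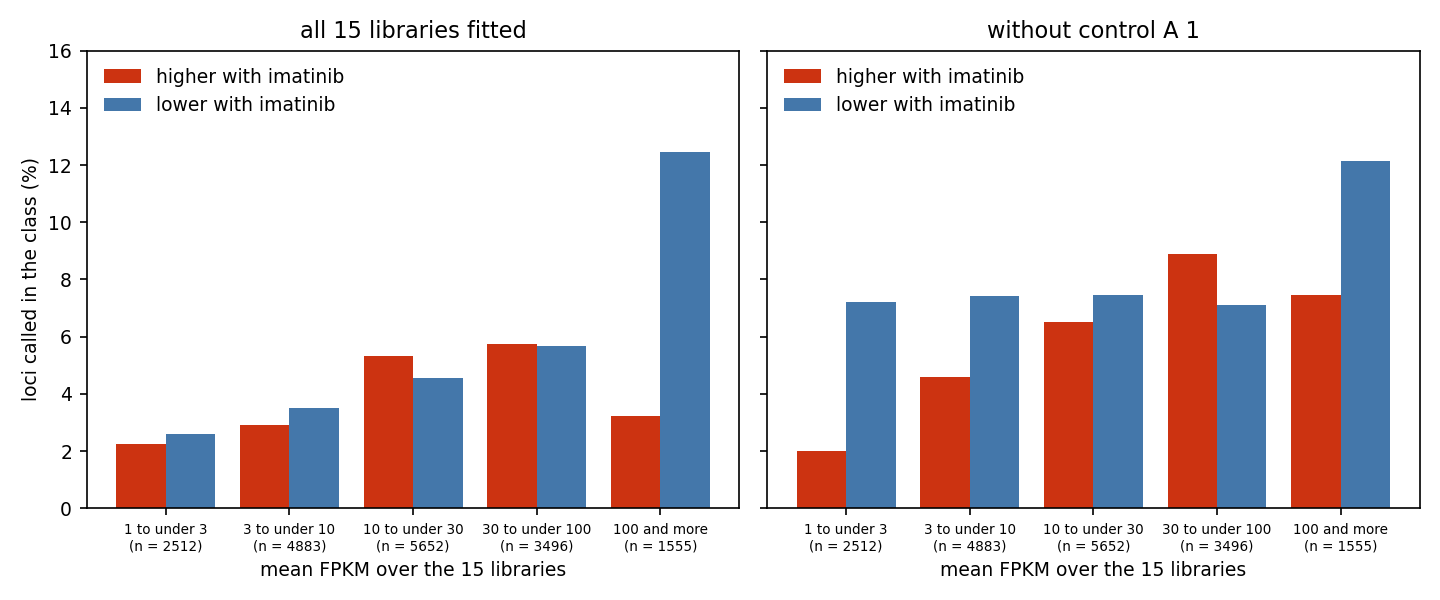
Percent of loci called higher (red) and lower (blue) with imatinib in 5 classes of mean FPKM over the 15 libraries, with the number of loci in each class; all 15 libraries are fitted on the left, and control A 1 is left out on the right. The class of 100 FPKM and more has 12.5% lower and 3.22% higher on the left.

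Calls were spread over loci of all sizes. Between 7.19% and 9.88% of loci were called in the 4 length classes from 100 bp upward, beside 9.03% of all, and between 7.19% and 16.2% without control A 1, beside 13.6%. Among the 567 loci of 10000 bp or more, 6.35% were higher and 3.53% lower; without control A 1 these shares were 10.8% and 5.47%. Of 73 loci under 100 bp, where FPKM divides by a very short length, 4 were called, each higher, and 2 without control A 1. Loci with 1 transcript were called in 9.25% of cases and loci with 10 or more in 8.09%, which came to 13.4% and 13.97% without control A 1. Among the higher loci with at least 2 transcripts of mean 1 FPKM or more, all such transcripts pointed up in 158 of 225, or 70.2%, beside 44.0% of all loci with a positive difference. For the lower loci it was 147 of 245, or 60.0%, beside 31.2% of all loci with a negative difference. Called loci were picked for a large difference in the sum of these same transcripts, which by itself raises both shares. These 225 and 245 loci are a minority of those called, and 10 loci held transcripts called in opposite directions.

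In the fit of all libraries a minority of lower loci had a lower neighbour, though a larger share than of tested loci as a whole. Among lower loci whose next tested locus on the scaffold occupied another interval, that neighbour was also lower in 97 of 660 cases, or 14.7%, beside 5.25% after any tested locus. After higher loci the neighbour was higher in 51 of 538 cases, or 9.48%, beside 4.39%. A neighbour called in the opposite direction followed in 3.33% and 3.35% of cases. Without control A 1 the shares were 22.7% after lower and 16.1% after higher loci, beside 8.27% and 6.12% after any locus. They stayed above those after any locus with quantile normalization, at 16.1% and 10.1%, and with median centring, at 14.4% and 8.11%. With control A 2 left out few calls remained, and 1 of 90 lower and 4 of 54 higher loci had such a neighbour, or 1.11% and 7.41%, beside 0.705% and 0.457% after any locus. No lower locus of 25 and no higher locus of 8 had one without imatinib 2, nor any of 11 and 3 without imatinib 3. These shares are descriptions without a test.

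The densest group of lower loci lay on scaffold01591, picked after its values were seen as the one with the largest share of lower loci among 649 scaffolds that carry at least 10 tested loci. It had 32 tested loci between positions 474 and 78702, of which 13, or 40.6%, were lower and 2 higher, and 25 had a negative difference. The lower loci fell by 2.18-fold to 5.12-fold with a median of 2.86. Among them 4 followed each other with no other tested locus between, and the last of these, from 33594 to 35762, had 630, 641 and 461 FPKM in control A and 274, 212 and 204 FPKM in imatinib. Etoposide had 551, 291 and 224 FPKM there, in 2 libraries close to imatinib, and cisplatin had 1008 to 1114 FPKM. The locus was highest in control B, at 1237, 1179 and 1025 FPKM. Among control A, control B and imatinib, the imatinib libraries thus had the lowest level, and the unexposed sets differed from each other.

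The same order was found in 11 of the 13 lower loci, where every control B library was above every control A library, beside 13.4% of all 886 lower loci. Every control B library was above every imatinib library in all 13, beside 70.8% of the 886. The etoposide mean lay between those of imatinib and control A in all 13. Every cisplatin library was above every control A library in 11. No share over all lower loci is given for the etoposide and cisplatin counts. Of the other loci of the scaffold, several were highest with imatinib or lower in control B than in control A. A locus further on, from 64782 to 67105, had 8.40, 15.5 and 15.7 FPKM in control A, 3.06, 1.43 and 0.949 FPKM in imatinib and 49.6, 54.0 and 52.7 FPKM in control B. The interval from 45595 to 53480 held loci of both directions. Its locus with 6 transcripts was lower, with 25.7, 30.9 and 39.9 FPKM in control A and 17.6, 12.6 and 7.04 FPKM in imatinib. The other was higher, with 0, 3.12 and 3.23 FPKM in control A and 10.1, 8.35 and 10.9 FPKM in imatinib. Control B held 35.9, 26.5 and 26.9 FPKM of this other locus. Against control B its difference was in the opposite direction, at -1.51 on the log2 scale with an adjusted p of 0.0442 in limma. The median log2 difference over the 32 loci was -1.14, and -1.26 without control A 1. The number of lower loci was 16 without control A 1, 1 without control A 2, and 0 without imatinib 2, without imatinib 3 and in the fit of the 6 libraries.

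**Figure D5:**
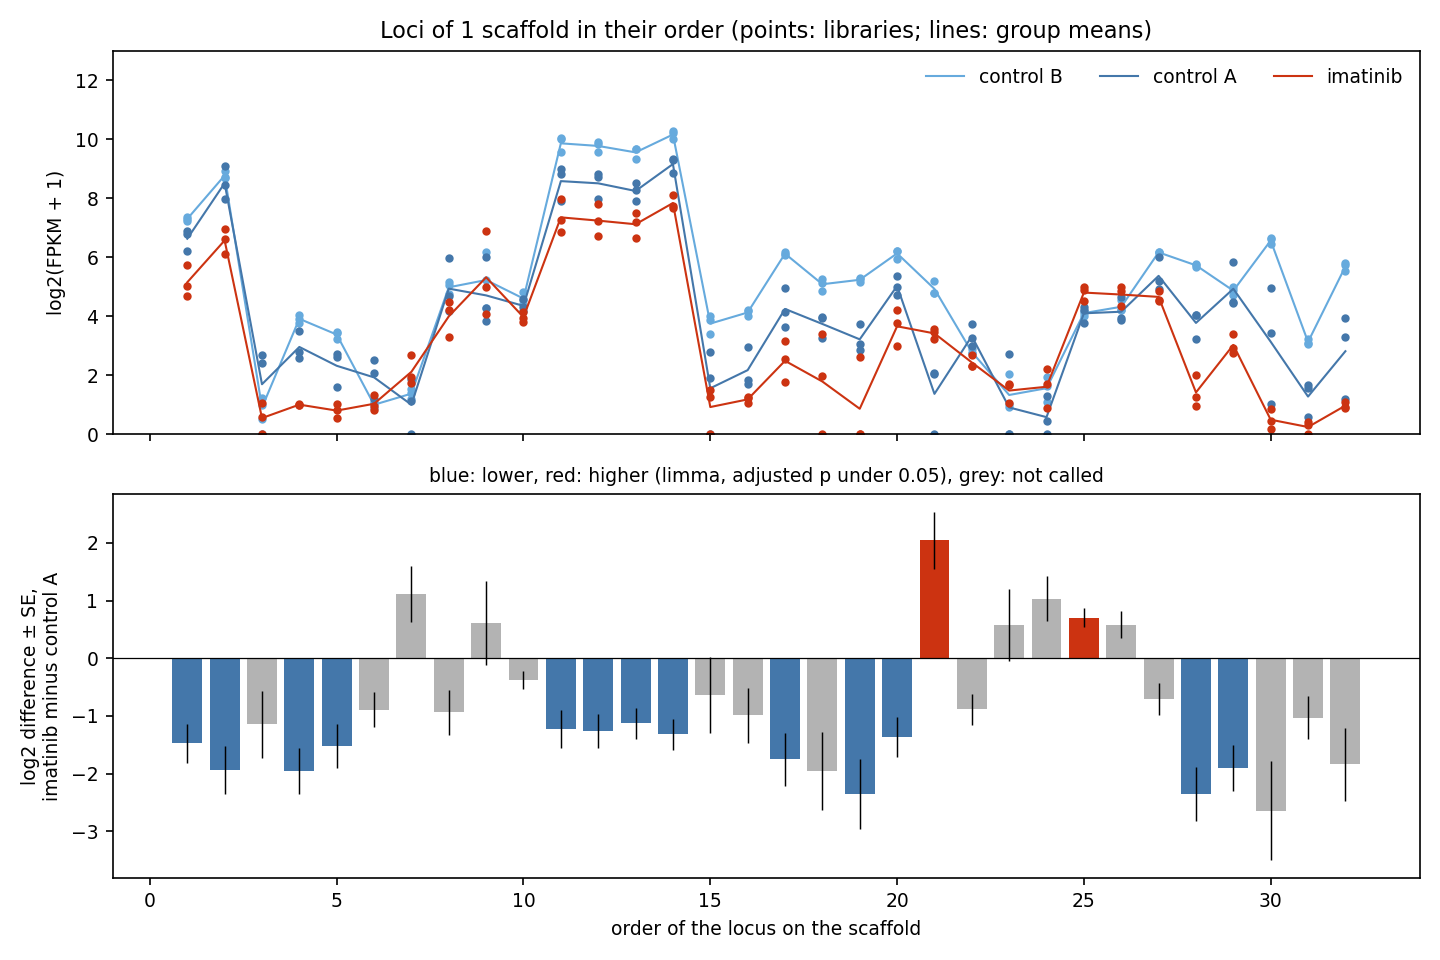
The 32 tested loci of scaffold01591 in their order: above, log2(FPKM + 1) in each control B, control A and imatinib library with lines through the group means; below, the log2 difference of imatinib minus control A with its standard error, blue where lower, red where higher and grey where not called. Of the 32 differences 25 are negative and 13 are called lower, and control B lies above control A along most of the scaffold.

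The imatinib libraries can also be set beside control B, with which the comparison shares the imatinib libraries. Against control B, limma called 4196 loci, or 23.2%, with 1139 higher (6.29%) and 3057 lower (16.9%). The median difference over all loci was -0.21 on the log2 scale, and the split moved with the scaling, to 1437 higher and 1993 lower after quantile normalization and to 1601 higher and 1257 lower after median centring. The mean of control B was nearer to imatinib than to control A in 547 of the 749 loci higher than control A, or 73.0%, beside 68.0% of all loci with a positive difference. It was nearer to imatinib in 332 of the 886 lower loci, or 37.5%, beside 28.0% of all loci with a negative difference. The first share was near that of all such loci and the second somewhat above it. Every control B library was above every control A library in 510 of the 749 higher loci, or 68.1%. This compares with 34.2% of all loci with a positive difference. Higher loci were picked in part for a low control A, which can raise this share. Among the 886 lower loci it was 13.4%, beside 21.2% of all loci with a negative difference. Where control B has the level of the exposed animals, a difference due to the drug and one between the unexposed sets cannot be told apart.

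Loci listed at 0 throughout one group were few. Control A was at 0 in all 3 libraries for 7 tested loci, and 3 of these, named here after their values were seen, were higher with imatinib. XLOC_017486, of 160 bp, had 22.5, 22.6 and 25.2 FPKM in imatinib and 31.9, 44.3 and 59.5 FPKM in control B, with an adjusted p of 0.000177 in limma, and 0.00313 in the fit of the 6 libraries. XLOC_002053, of 194 bp, had 28.9, 34.4 and 16.7 FPKM in imatinib. Its adjusted p was 0.0218 in limma in the fit of the 6 libraries. XLOC_017486 and XLOC_002053 were the loci that passed there. Since all control A values of both loci were 0, control A added no spread to their p-values. Leaving out a control A library could not change their differences either. Control B had 3.79, 10.1 and 18.8 FPKM for XLOC_002053, a difference of 1.38 with an adjusted p of 0.268 in limma. Etoposide and cisplatin held 3.14 to 18.9 and 0 to 12.4 FPKM of it. For XLOC_017486 they held 26.8 to 52.0 and 16.5 to 44.4 FPKM. Among the 5 groups, only control A was at 0 in all libraries for these loci. XLOC_017486 passed in all 6 fits that each left out 1 library, whereas XLOC_002053 lost its call without control A 2, imatinib 2 or imatinib 3, with adjusted p from 0.0501 to 0.0618 in limma. XLOC_007074, of 629 bp, had 0.884, 5.48 and 1.65 FPKM in imatinib. Its adjusted p of 0.0397 in limma became 0.0541 without control A 1, and it passed only without imatinib 1 among the 6 fits that left out 1 library. Imatinib was at 0 in all 3 libraries for 4 loci, none of them called. One of these, XLOC_006030, of 214 bp, was listed at 0, 34.5 and 21.9 FPKM in control A. Its adjusted p was 0.1 in limma with control A 1 and 0.0102 without it. Of the 749 higher loci, 46, or 6.14%, were listed at 0 in control A 1, beside 8.46% of all loci with a positive difference. XLOC_000351, also named after its values were seen because it passed among the 5 libraries fitted alone (adjusted p 0.0277 in limma), had 10.7, 3.52 and 3.02 FPKM in control A, 38.6, 43.3 and 45.6 FPKM in imatinib and 7.32, 2.22 and 1.77 FPKM in control B. It lies on scaffold00127 from 24839 to 34108, and in both unexposed sets its level was below that of every imatinib library. XLOC_000351 shares its interval with another locus, and etoposide held 12.1 to 41.4 FPKM of it. Its adjusted p in limma was 0.0173 in the fit of all 15 libraries and 0.213 in that of the 6. In the fit of all libraries the call was lost without control A 2, imatinib 2 or imatinib 3, with adjusted p from 0.0649 to 0.0677 in limma.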

How the data were processed

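Whole-animal mRNA was sequenced in 15 libraries of 5 groups. The deposited table holds FPKM per assembled transcript for 33982 transcripts; per the submitters' processing notes, Cufflinks 2.2.1 and Cuffdiff were used, with Bowtie2 2.1 and TopHat2 2.0, and also Trim Galore and CASAVA 1.8.0; their roles are not stated. The genome build is not given in the sources used here. Positions are printed as deposited (starts appear to count from 0), and 30.0% of tested loci share an interval with another locus; how fragments were divided between such loci is not given in the sources used here.

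FPKM were summed per locus and taken as log2(FPKM + 1), so folds of low loci are understated. Loci averaging 1 FPKM or more were tested two-sided with limma 3.58.1 in R 4.3.3 (5 group means, eBayes with trend, Benjamini-Hochberg over 18098 loci, threshold 0.05); tables were made in Python 3.11.15. The fit without control A 1 tests the same loci. The method was tested on simulated data in which every group had the same spread at a locus. The groups here differ in spread, so that test says nothing about how the shared fit behaves with unequal spreads. Named loci are, in each direction, the 2 with the largest difference passing with and without control A 1, and then, skipping those, the 2 with the smallest p without it, all at least 200 bp long and without overlap between groups. Members, lists and rules were chosen with earlier results of these data known. Loci under 100 bp take 72.6% to 96.1% of the FPKM total of a library, so totals say nothing about depth. No identifier matched the 28335 genes of the reference table (assembly ASM2063170v1.1).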

Additional observations from a re-analysis of the deposited data

How the results depend on the processing

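The count against control A, 1635 loci, stayed within 1.5 times under the other pseudocounts, filters, library scalings and library weights, between 1307 and 1710. It was 1067 when transcripts were tested, 2 in the fit of the 6 libraries and 21 to 2672 with each library left out. Without control A 1 the count of 2470 went to 1170 with library weights, 1476 for transcripts, 3 in the fit of the 5 libraries and 0 to 3407 with a further library left out; 3608 loci had an unadjusted p under 0.05 where none passed. The count against control B, 4196 loci, was 7726 with library weights and 2376 to 3660 with each library left out. Chosen after seeing the data were the fits without control B and cisplatin (2 loci, and 1 without control A 1), those leaving out 1 control B library each (1059 to 1157 loci), and those of the 6 libraries leaving out 1 each (0 to 5). Same-numbered imatinib and control A libraries deviated together with correlations of 0.07, 0.13 and -0.17, which differ in sign. For same-numbered imatinib and control B libraries the correlations were -0.38, -0.29 and -0.37. With 3 libraries a group, such values cannot settle whether the numbers pair the libraries. With the number as a replicate block 1293, 2353 and 3764 loci passed in the 3 comparisons. XLOC_017677 lost its call there (adjusted p 0.0625 in limma). Each of the 8 named loci lost its call under 1 to 8 alternatives; their signs were fixed by the choice of groups without overlap. Depth is unknown, so counting error cannot be separated from other spread.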
